A study of Rattus norvegicus with 6 samples.

Results

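The genes described here encode the core of transforming growth factor beta (TGF-beta) signalling: the ligand genes Tgfb1, Tgfb2 and Tgfb3, the latent-complex gene Ltbp1, the receptor genes Tgfbr1, Tgfbr2 and Tgfbr3, and the intracellular Smad genes Smad2, Smad3 and Smad7. They were chosen by symbol, and every line of the expression table with one of the 10 symbols was kept. All 10 were found, among 13556 symbols, on 11 of 13843 lines of the table, since Tgfb1 stands on 2 lines. RNA sequencing was done on neonatal rat ventricular myocytes (NRVM), primary heart muscle cells of the newborn rat that keep variable numbers of other heart cells in culture. The 6 libraries form 3 groups of 2, and each treatment lasted 3 days. The first group received phenylephrine (PE), TSA and a short hairpin RNA against JIP1 (PE+TSA+shJIP1). In the second, PE and TSA were given with a control hairpin (PE+TSA). In the third, PE was given with that control hairpin (PE). All groups therefore carried PE, an alpha-1 adrenergic agonist that makes cultured cardiomyocytes grow, and all carried a hairpin. The labels give TSA as an abbreviation only, which commonly stands for trichostatin A, a compound that inhibits histone deacetylases. JIP1 is encoded by Mapk8ip1 and holds kinases of the JNK cascade together. Cultures without PE, and the JIP1 hairpin without TSA, were not analysed here.

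TGF-beta ligands are secreted in a latent form, bound to their own propeptide and to a latent TGF-beta binding protein that anchors the complex in the extracellular matrix. Once released, a ligand binds the type II receptor, which phosphorylates the type I receptor, and this kinase then phosphorylates Smad2 and Smad3, which enter the nucleus with Smad4 and regulate transcription. Smad7 is an inhibitory Smad induced by the pathway itself, and in the heart the pathway is best known for the activation of fibroblasts, matrix production and the growth response of cardiomyocytes.

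The members were chosen by symbol, and the start regions of the 4 genes the results turn on are shown so that their letters can be read beside their values. The windows run from 250 bases before to 50 bases after the transcription start in RefSeq's annotation of the rat assembly GRCr8. All 4 lie on the minus strand and are printed in the direction of transcription. This is a later build than the one named for the expression values, so the sequences identify the genes and no expression value was placed on these coordinates. Tgfb2 is at chr13:100792636-100792935, Tgfbr2 at chr8:124761420-124761719, Smad3 at chr8:73132275-73132574 and Ltbp1 at chr6:26177252-26177551. Capitals mark matches, on either strand, to GTCT (the Smad box), TGACG (part of TGACGTCA, the site of ATF and CREB factors) and GGGCGG (the GC box).
Tgfb2: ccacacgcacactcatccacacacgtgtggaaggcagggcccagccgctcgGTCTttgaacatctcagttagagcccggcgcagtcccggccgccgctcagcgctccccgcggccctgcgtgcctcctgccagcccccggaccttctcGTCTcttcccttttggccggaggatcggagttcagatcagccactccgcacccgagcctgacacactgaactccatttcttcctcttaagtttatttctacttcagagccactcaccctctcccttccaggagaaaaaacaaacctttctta
Tgfbr2: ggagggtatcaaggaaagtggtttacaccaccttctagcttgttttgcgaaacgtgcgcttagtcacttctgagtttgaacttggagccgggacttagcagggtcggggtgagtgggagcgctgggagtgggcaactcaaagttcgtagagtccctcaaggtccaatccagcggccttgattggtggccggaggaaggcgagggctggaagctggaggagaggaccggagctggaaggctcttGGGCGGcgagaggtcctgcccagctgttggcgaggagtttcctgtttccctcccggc
Smad3: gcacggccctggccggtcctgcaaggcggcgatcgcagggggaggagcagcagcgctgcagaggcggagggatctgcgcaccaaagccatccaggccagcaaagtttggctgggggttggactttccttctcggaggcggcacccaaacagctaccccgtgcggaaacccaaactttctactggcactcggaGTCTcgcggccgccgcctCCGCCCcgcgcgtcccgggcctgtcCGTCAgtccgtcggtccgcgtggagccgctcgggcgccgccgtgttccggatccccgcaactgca
Ltbp1: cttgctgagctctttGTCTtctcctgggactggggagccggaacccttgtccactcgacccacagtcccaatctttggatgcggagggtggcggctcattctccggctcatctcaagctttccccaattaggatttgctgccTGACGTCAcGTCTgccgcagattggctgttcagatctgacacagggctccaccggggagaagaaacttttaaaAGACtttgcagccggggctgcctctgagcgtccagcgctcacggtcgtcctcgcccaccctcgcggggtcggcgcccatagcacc
Positions are those of a match's first letter, counted from the start site. The Smad box lay at positions -199 and -102 from the start of Tgfb2, at -58 in Smad3 and at -235, -99 and -35 in Ltbp1, and the Tgfbr2 window held none. These letters are common, since 88.8% of 33469 rat windows of this length held the Smad box. TGACG was present in 21.2% of windows. Its complement CGTCA stood at -15 in Smad3, and in Ltbp1 matches at -108 and -105 overlapped in the letters TGACGTCA. How many windows held all of TGACGTCA was not counted. The GC box was present in 33.1% of windows, at -7 in Tgfbr2 and, as CCGCCC, at -40 in Smad3. The motifs were chosen after the expression values were known, and a match of letters is not a binding site.

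Levels are given in FPKM, in which fragments are divided by transcript length and by the mapped total, and which so allow levels to be set side by side between genes. Over the 6 libraries Tgfb2 had the highest mean level of the members, at 119 FPKM, above 94.5% of the 10359 features that passed the filter of a mean of at least 1 FPKM. Tgfbr2 (49.6 FPKM), the second Tgfb1 listing (48.9 FPKM) and Smad3 (34.7 FPKM) followed. Smad2, Ltbp1, Tgfbr3, Smad7 and Tgfb3 lay within 12.6 to 13.9 FPKM, a smaller difference than that between replicate libraries of several of them. Tgfbr1 was the lowest gene, at 3.56 FPKM. The 11 listings all passed the filter.

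Library facts bear on these levels. One library, PE replicate 2, was about 20.8 times shallower than PE replicate 1, as judged from the whole-read steps of low values, and 3667 features were listed at 0 in it, against 1407 to 1837 in the other libraries. In 30 low features of that library 1 read was worth 0.169 to 6.09 FPKM, so a level of a few FPKM there can rest on few reads. Mapk8ip1, the target of the hairpin, had 1.80 and 3.65 FPKM in PE+TSA+shJIP1, 14.6 and 17.9 FPKM in PE+TSA, and 3.77 and 4.39 FPKM in PE. It was lower with the hairpin than with PE+TSA in both libraries, without passing the test (log2 change -2.25, adjusted p = 0.077). PE+TSA replicate 1 resembled PE replicate 1 (r = 0.910 across genes) slightly more than its own replicate (r = 0.898). Cardiomyocyte markers were present in every library, with 8 of 8 detected and a summed level of 9881 and 5558 FPKM in PE+TSA+shJIP1, 9516 and 5381 FPKM in PE+TSA, and 18906 and 15586 FPKM in PE. Fibroblast markers (9 of 10 tested) summed to 586 and 701, 550 and 763, and 1067 and 1719 FPKM in the same order. Of their single genes Col1a1 had 284 to 1050 FPKM over the 6 libraries and Dcn 76.2 to 258 FPKM, while Col1a2 was listed at 0 in 5 libraries. The sum is carried mostly by Col1a1, and Thy1 went the other way: it had 10.9 and 17.3 FPKM in PE+TSA+shJIP1, 20.9 and 24.7 FPKM in PE+TSA, and 3.29 and 1.56 FPKM in PE, and rose with TSA (2.84, adjusted p = 0.0373). Smooth muscle and pericyte markers (8 markers) summed to 520 and 501, 411 and 267, and 1670 and 1358 FPKM, carried mostly by Acta2, Tagln and Cnn1. Endothelial markers reached 38.3 FPKM at most and macrophage markers 12.7 FPKM at most, with C1qa at 0 in 5 libraries. In such bulk RNA fewer cells of a type and less RNA per cell cannot be told apart, and the part of these marker shifts in the results below was not tested.

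Each comparison below used limma on log2(FPKM + 1) of all 10359 features, and a change is written as log2 ± SE. A feature is said to have risen or fallen only when its Benjamini-Hochberg adjusted p was below 0.05. Whether replicate libraries come from different cultures is not said in the labels, so a p-value measures the spread between libraries, which may be technical. The 3 comparisons share groups and are not independent of one another.

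**Figure D1:**
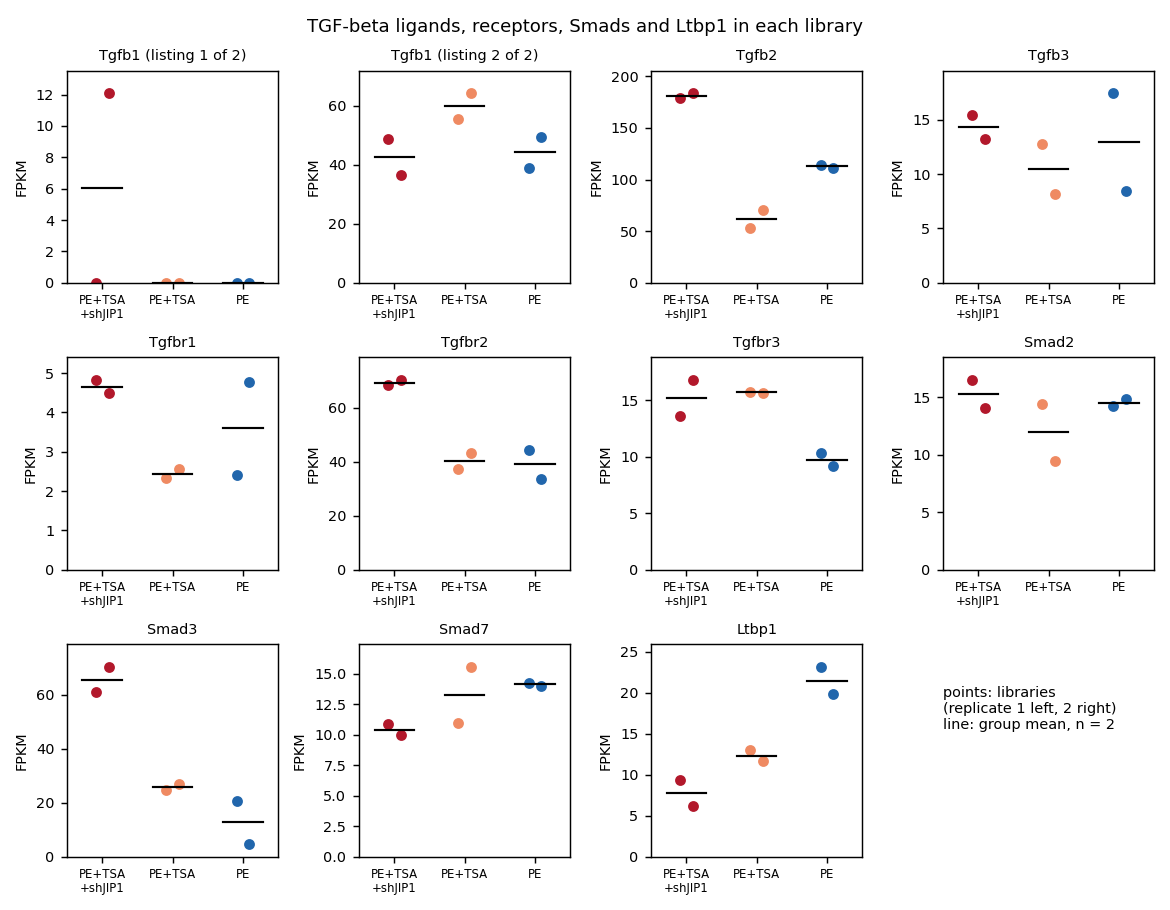
FPKM of each listing in each library, with 1 panel per listing, points for libraries (replicate 1 left, replicate 2 right) and a line at the mean of the 2 libraries. Tgfb2 stands at 179 and 184 FPKM in PE+TSA+shJIP1, above all other libraries, and the lone high point of the first Tgfb1 listing is 12.1 FPKM.

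Among the ligands, Tgfb2 differed most between groups. Tgfb2, the ligand with low affinity for the type II receptor on its own, had 179 and 184 FPKM in PE+TSA+shJIP1, 53.4 and 71.0 FPKM in PE+TSA, and 114 and 112 FPKM in PE. The 3 groups did not overlap: both libraries with the JIP1 hairpin were the highest and both PE+TSA libraries the lowest. With the hairpin the mean was 2.91 times that of PE+TSA (181 ± 3.03 against 62.2 ± 12.4 FPKM, SD, n = 2 each). This is a log2 change of 1.54 ± 0.21, with a limma adjusted p of 0.0618, just above the threshold of 0.05. Against PE, PE+TSA differed by -0.86 ± 0.21 (adjusted p = 0.125) and PE+TSA+shJIP1 by 0.68 ± 0.21 (adjusted p = 0.089). Tgfb2 thus passed the test in none of the 3 comparisons, although its unadjusted limma p was 0.000244 for the hairpin. Of 14 alternative settings of the hairpin comparison, with changes of 1.34 to 1.74, it passed in 1. That was the scaling of libraries to a common median (1.62, adjusted p = 0.0432).

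Tgfb1, the ligand most studied in fibrosis, stood on 2 lines of the table. The second had 48.8 and 36.5 FPKM in PE+TSA+shJIP1, 55.5 and 64.3 FPKM in PE+TSA, and 39.0 and 49.5 FPKM in PE. The first held 12.1 FPKM in PE+TSA+shJIP1 replicate 2 and 0.000228 FPKM or less in each of the other 5 libraries, so its level is carried by 1 library and no fold is given. The summed lines had 48.8 and 48.6 FPKM in PE+TSA+shJIP1, 55.5 and 64.3 FPKM in PE+TSA, and 39.0 and 49.5 FPKM in PE. In that sum the libraries with the hairpin agreed closely with each other and lay within the range of PE. Whether the lines stand for overlapping transcripts is not given in the sources used here. On the second line PE+TSA was higher than PE by 0.43 ± 0.24 (adjusted p = 0.377), and PE+TSA+shJIP1 differed from PE+TSA by -0.49 ± 0.24 (adjusted p = 0.407), or by -0.29 with the lines summed (adjusted p = 0.576). PE+TSA+shJIP1 and PE overlapped, and their change of -0.06 turned to 0.14 with the lines summed. The first line did not pass in any comparison (adjusted p of 1, 0.504 and 0.312 for TSA, the hairpin and both).

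Tgfb3, the third ligand, had 15.5 and 13.2 FPKM in PE+TSA+shJIP1, 12.7 and 8.20 FPKM in PE+TSA, and 17.4 and 8.49 FPKM in PE. The PE libraries spanned nearly the whole range, and no comparison passed (adjusted p 0.649 to 0.770). The makeup of the ligand mRNA was read as the share of each gene in their summed FPKM. Tgfb2 made up 73.6% and 74.8% of the summed ligand FPKM in PE+TSA+shJIP1, 43.9% and 49.5% with PE+TSA, and 67.0% and 65.8% with PE alone. Tgfb1, both lines together, made up 19.9% ± 0.178 in PE+TSA+shJIP1 (SD, n = 2), 45.6% and 44.8% with PE+TSA, and 22.8% and 29.2% with PE alone. The summed ligand level was 244 and 245 FPKM in PE+TSA+shJIP1, 122 and 143 FPKM in PE+TSA, and 171 and 170 FPKM in PE. The shares of Tgfb1 and Tgfb2 were close to each other in both PE+TSA libraries, while Tgfb2 led in the other 4, and the 3 groups did not overlap in its share. These shares were not tested.

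**Figure D2:**
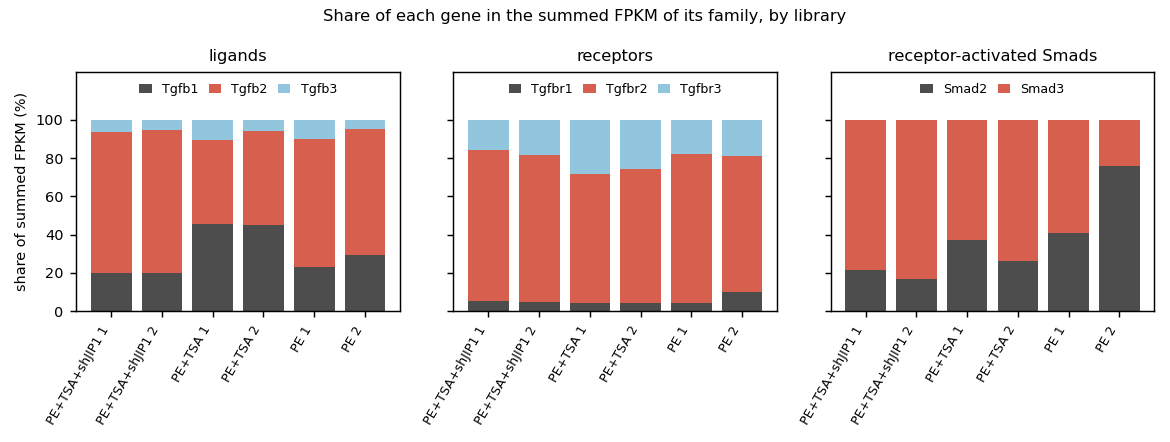
Share (%) of each gene in the summed FPKM of its family, 1 bar per library, for ligands, receptors and receptor-activated Smads. Tgfb2 takes 43.9% and 49.5% of the ligand level in the PE+TSA libraries and at least 65.8% in the other 4, and Smad3 takes 24.1% of Smad2 plus Smad3 in PE replicate 2.

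Ltbp1, which binds latent TGF-beta and tethers it to the matrix, was the member that fell. It had 9.30 and 6.21 FPKM in PE+TSA+shJIP1, 13.0 and 11.6 FPKM in PE+TSA, and 23.1 and 19.8 FPKM in PE. The groups did not overlap, with the lowest levels in both libraries with the hairpin and the highest in both PE libraries. The mean was 7.75 ± 2.19 FPKM in PE+TSA+shJIP1 and 21.5 ± 2.36 FPKM in PE (SD, n = 2 each), a ratio of 0.361. On the log2 scale it fell by 1.38 ± 0.27 in PE+TSA+shJIP1 against PE (limma adjusted p = 0.0357). Each step alone went the same way without passing, at -0.75 ± 0.27 for PE+TSA against PE (adjusted p = 0.217) and -0.63 ± 0.27 for PE+TSA+shJIP1 against PE+TSA (adjusted p = 0.349). The call was lost when any 1 of the 6 libraries was left out, with changes of -1.64 to -1.12 and adjusted p of 0.0762 to 0.19. It was also lost with no filter on low values (adjusted p = 0.065) and with only the groups compared in the fit (adjusted p = 0.0849). The summed cardiomyocyte, fibroblast and smooth muscle markers were likewise lower in all 4 libraries with TSA than in both PE libraries, though the fibroblast marker Thy1 and the pericyte marker Notch3 (2.59 to 4.16 FPKM with TSA, against 0.927 and 0.984 FPKM in PE) were higher there. The part of these markers in the level of Ltbp1 was not tested.

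Of the receptors, Tgfbr2 was the most abundant, and no receptor gene passed the test in any comparison. Tgfbr2, the type II receptor that binds ligand first, had 68.4 and 70.2 FPKM in PE+TSA+shJIP1, 37.5 and 43.1 FPKM in PE+TSA, and 44.5 and 33.8 FPKM in PE. Both hairpin libraries lay above the other 4, while PE+TSA and PE overlapped. The level in PE+TSA+shJIP1 was 1.72 times that in PE+TSA (0.77 ± 0.22, adjusted p = 0.192) and 1.77 times that in PE (0.82 ± 0.22, adjusted p = 0.0653). PE+TSA against PE gave 0.05 ± 0.22 (adjusted p = 0.915), with a 95% interval of -0.47 to 0.57. Tgfbr2 did not pass in any comparison as fitted, and it passed against PE only with median scaling (0.79, adjusted p = 0.0492).

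Tgfbr1, the type I receptor kinase that phosphorylates Smad2 and Smad3, had 4.82 and 4.49 FPKM in PE+TSA+shJIP1, 2.32 and 2.56 FPKM in PE+TSA, and 2.42 and 4.77 FPKM in PE. The hairpin libraries were above both PE+TSA libraries (0.72 ± 0.37, adjusted p = 0.432), and the PE libraries spanned nearly the whole range. The higher PE value, 4.77 FPKM, came from the shallow PE replicate 2. Tgfbr3, or betaglycan, the co-receptor that presents Tgfb2 to the signalling receptors, had 13.5 and 16.7 FPKM in PE+TSA+shJIP1, 15.7 and 15.6 FPKM in PE+TSA, and 10.3 and 9.12 FPKM in PE. Its 4 libraries with TSA were all above both PE libraries. PE+TSA was higher than PE by 0.64 ± 0.23 (adjusted p = 0.217) and PE+TSA+shJIP1 than PE by 0.59 ± 0.23 (adjusted p = 0.148). The hairpin made a difference of -0.05 ± 0.23 (95% interval -0.61 to 0.50), and the sign of that value turned with median scaling and with quantile normalization (0.02 and 0.01). Tgfbr2 took 78.8% and 76.8% of the summed receptor FPKM in PE+TSA+shJIP1, 67.5% and 70.3% with PE+TSA, and 77.8% and 70.8% with PE alone. Tgfbr3 took 15.6% and 18.3% in PE+TSA+shJIP1, 28.3% and 25.5% in PE+TSA, and 18.0% and 19.1% of it in PE.

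Smad3, the receptor-activated Smad that binds DNA directly and drives most transcriptional responses to TGF-beta, was the member that rose. It had 61.0 and 70.3 FPKM in PE+TSA+shJIP1, 24.6 and 27.0 FPKM in PE+TSA, and 20.8 and 4.72 FPKM in PE. The groups did not overlap, with both hairpin libraries highest, but the PE libraries lay far apart. Its log2 level rose by 2.57 ± 0.58 in PE+TSA+shJIP1 against PE (limma adjusted p = 0.0489), at means of 65.7 ± 6.57 and 12.8 ± 11.4 FPKM (SD, n = 2 each). The separate steps did not pass, at 1.26 ± 0.58 for PE+TSA against PE (adjusted p = 0.312) and 1.31 ± 0.58 for PE+TSA+shJIP1 against PE+TSA (adjusted p = 0.366). The lower PE value came from the shallow PE replicate 2, without which the change against PE was 1.61 (adjusted p = 0.0758). Leaving out PE replicate 1 sets the other groups against that single shallow library, whose spread is then taken from them, and gave 3.54 (adjusted p = 0.0139) and, for PE+TSA against PE, 2.22 (adjusted p = 0.0307). Those values rest on the 4.72 FPKM of 1 library. Leaving out either PE+TSA library (adjusted p = 0.108) or either hairpin library (adjusted p = 0.172 and 0.236) lost the call. The hairpin step uses PE libraries only for the shared spread, and in it Smad3 was 2.55 times as high in PE+TSA+shJIP1 as in PE+TSA.

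Smad2, the other receptor-activated Smad of the pathway, had 16.5 and 14.1 FPKM in PE+TSA+shJIP1, 14.4 and 9.46 FPKM in PE+TSA, and 14.3 and 14.8 FPKM in PE. All groups overlapped, and the changes of -0.29, 0.35 and 0.06 for TSA, the hairpin and both did not pass (adjusted p 0.589 to 0.898). Smad3 therefore made up 78.7% and 83.3% of Smad2 plus Smad3 in PE+TSA+shJIP1, 63.0% and 74.0% with PE+TSA, and 59.3% and 24.1% with PE alone. Smad7, which blocks the type I receptor, had 10.8 and 9.95 FPKM in PE+TSA+shJIP1, 11.0 and 15.6 FPKM in PE+TSA, and 14.2 and 14.0 FPKM in PE. The hairpin libraries were just below the other 4. The difference was -0.31 ± 0.25 against PE+TSA (adjusted p = 0.628) and -0.41 ± 0.25 against PE (adjusted p = 0.317), and PE+TSA against PE gave -0.10 ± 0.25 (adjusted p = 0.85).

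**Figure D3:**
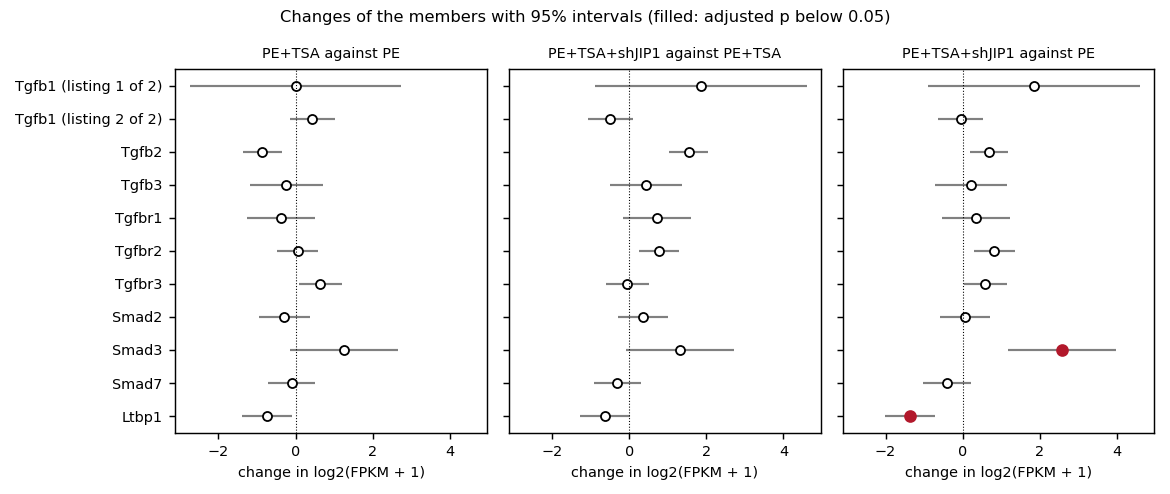
Change in log2(FPKM + 1) of each listing, with its 95% interval, in the 3 comparisons (the first group named in each heading over the second), where filled points passed an adjusted p of 0.05. Of the 33 intervals only those of Smad3 (2.57) and Ltbp1 (-1.38) in PE+TSA+shJIP1 against PE belong to passing tests.

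Counted together, 0 of the 11 listings passed with TSA, against 0.811% of all features in either direction (0.627% higher and 0.183% lower). At an unadjusted limma p below 0.05 there were 3 of 11 (Tgfb2, Tgfbr3 and Ltbp1), against 1938 of all 10359 features. The groups did not overlap for 5 listings, 3 higher and 2 lower, against 50.6% of all features. With the hairpin 0 of 11 passed, against 0.290% of all features (0.183% higher and 0.106% lower). An unadjusted limma p below 0.05 was found for 2 of 11 (Tgfb2 and Tgfbr2), against 1540 of all 10359 features. The groups did not overlap for 8 listings, 5 higher and 3 lower, against 50.0% of all features. With both against PE, 1 of 11 rose (Smad3), against 4.11% of all features, and 1 fell (Ltbp1), against 4.16%, where 8.27% of all features passed in either direction. An unadjusted limma p below 0.05 was found for 5 of 11 (Tgfb2, Tgfbr2, Tgfbr3, Smad3 and Ltbp1), against 3185 of all 10359 features. The groups did not overlap for 6 listings, against 60.6% of all features. The members' median log2 changes were -0.10, 0.44 and 0.35 for TSA, the hairpin and both, beside 0.10, -0.003 and 0.10 for all features. None of these shares is read as particular to the members.

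The rest of the pathway was read from 5 gene lists. Of 14 tested features for the storage and activation of latent TGF-beta, 0 passed with TSA or with the hairpin, and 3 fell and 0 rose in PE+TSA+shJIP1 against PE (21.4%, beside 8.27% of all features in either direction and 4.16% lower). Furin, a protease that cuts TGF-beta from its propeptide, had 11.2 and 11.8 FPKM in PE+TSA+shJIP1, 48.5 and 30.6 FPKM in PE+TSA, and 68.4 and 61.6 FPKM in PE. It fell by 2.40 ± 0.26 in PE+TSA+shJIP1 against PE (adjusted p = 0.0143), and its hairpin step of -1.66 did not pass (adjusted p = 0.0845). Mmp2, a gelatinase that can release latent TGF-beta, fell by 1.60 ± 0.31 (adjusted p = 0.0338). Ltbp2, a relative of Ltbp1, fell by 1.89 ± 0.40 (adjusted p = 0.0411), with 1.78 and 3.01 FPKM in PE+TSA+shJIP1 and 9.75 and 13.2 FPKM in PE. Ltbp3, another binding protein of latent TGF-beta, differed from Ltbp1 in that its hairpin libraries were near PE: it had 12.0 and 11.9 FPKM in PE+TSA+shJIP1, 6.16 and 6.46 FPKM in PE+TSA, and 13.8 and 16.0 FPKM in PE. Ltbp3 did not pass with TSA (-1.12, adjusted p = 0.0969) or the hairpin (0.82, adjusted p = 0.192). Mmp14, a membrane protease, had -1.65 with TSA (adjusted p = 0.0839), and Itgb3, an integrin subunit, -0.68 with the hairpin (adjusted p = 0.424). The list's medians were -0.26, 0.10 and -0.39 for TSA, the hairpin and both.

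Of the 9 tested other receptors of the family, 0 passed in each comparison, with medians of -0.21, 0.08 and 0.01. The smallest p-values belonged to the co-receptor gene Eng and the activin receptor gene Acvr2b, in PE+TSA+shJIP1 against PE. Their changes were -1.13 (limma adjusted p = 0.0775) and 1.22 (adjusted p = 0.0827). Eng passed with the replicate block (adjusted p = 0.0331) and Acvr2b with 1 prior variance (adjusted p = 0.0473). Acvrl1, a type I receptor of endothelium, had -1.25 in the same comparison (adjusted p = 0.162). Bambi, a pseudoreceptor, had -0.86 with the hairpin (adjusted p = 0.339), and Acvr1b, an activin type I receptor, 0.47 (adjusted p = 0.477). Of the 10 tested other ligands, 0 passed in each comparison as well, with medians of 0.26, -0.49 and -0.05. Inhba, an activin subunit, had 23.7 and 22.4 FPKM in PE+TSA+shJIP1, 51.5 and 91.4 FPKM in PE+TSA, and 36.3 and 28.4 FPKM in PE, with -1.53 for the hairpin (adjusted p = 0.113). It was lowest in the hairpin libraries, where Tgfb2 was highest. Gdf11 had 12.1 and 10.7 FPKM in PE+TSA+shJIP1 and 12.2 and 21.6 FPKM in PE+TSA, against 3.27 FPKM in PE replicate 1 and close to 0 in the shallow PE replicate 2. Gdf11 did not pass with TSA (adjusted p = 0.112) or with both (adjusted p = 0.0657). It passed with both under quantile normalization (adjusted p = 0.0446), and in both comparisons without PE replicate 1 (adjusted p = 0.0301 and 0.0253), where only the shallow PE library is left. The bone morphogenetic and growth differentiation factor genes Bmp5 (1.60 with TSA, adjusted p = 0.2), Bmp4 (-0.62 with the hairpin, adjusted p = 0.555), Gdf6 (-1.08 with both, adjusted p = 0.196) and Gdf15 (-0.79 with the hairpin, adjusted p = 0.544) did not pass either.

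Among 19 tested features of other Smads and Smad regulators, 0 passed with TSA or the hairpin, and 1 rose and 2 fell in PE+TSA+shJIP1 against PE (15.8%, beside 8.27% of all features). Pmepa1, a TGF-beta induced protein that keeps Smad2 and Smad3 from the receptor, had 18.7 and 25.6 FPKM in PE+TSA+shJIP1, 44.2 and 45.5 FPKM in PE+TSA, and 98.7 and 133 FPKM in PE. It fell by 2.34 ± 0.25 (adjusted p = 0.0137), while Smad3 rose in the same comparison. Fkbp1a, which binds the type I receptor and holds it inactive, had 66.0 and 56.2 FPKM in PE+TSA+shJIP1, 133 and 122 FPKM in PE+TSA, and 200 and 161 FPKM in PE, and fell by 1.54 ± 0.21 (adjusted p = 0.0173). The second listing of Nedd4l, a ubiquitin ligase that acts on activated Smad2 and Smad3, rose by 1.23 ± 0.27 (adjusted p = 0.0442). It had 30.3 and 25.9 FPKM in PE+TSA+shJIP1, 21.8 and 24.4 FPKM in PE+TSA, and 14.1 and 9.12 FPKM in PE. The first Nedd4l listing, at 0 to 7.74 FPKM, did not pass in that comparison (1.04, adjusted p = 0.452). Smad4, the common partner Smad, had 24.5 and 16.9 FPKM in PE+TSA+shJIP1, 38.1 and 35.7 FPKM in PE+TSA, and 36.9 and 33.1 FPKM in PE, and did not pass with the hairpin (-0.83, adjusted p = 0.204). The medians of this list were 0.08, 0.12 and 0.06.

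Of 30 tested features known to respond to TGF-beta in other settings, 1 fell with TSA, 1 rose with the hairpin, and 1 rose and 4 fell with both against PE. These are 3.33%, 3.33% and 16.7% of the list, beside 0.811%, 0.290% and 8.27% of all features. The list's medians were -0.60, 0.19 and -0.50. Ctgf, a matricellular protein and a classical target, had 1235 and 1612 FPKM in PE+TSA+shJIP1, 110 and 186 FPKM in PE+TSA, and 226 and 279 FPKM in PE. It rose by 3.29 ± 0.32 with the hairpin (adjusted p = 0.027) and by 2.48 ± 0.32 with both (adjusted p = 0.0158), so its order of groups was that of Tgfb2. Acta2, the smooth muscle actin of myofibroblasts, had 187 and 133 FPKM in PE+TSA+shJIP1, 213 and 139 FPKM in PE+TSA, and 988 and 886 FPKM in PE. It fell by 2.43 ± 0.29 with TSA (adjusted p = 0.0332) and by 2.56 ± 0.29 with both (adjusted p = 0.0143). The matrix genes Bgn (on its 2 lines, -1.46 and -1.35, adjusted p = 0.0401 and 0.0395) and Sparc (-1.11, adjusted p = 0.0402) fell with both. Tagln, an actin-binding protein of smooth muscle, had 1.78 with the hairpin (adjusted p = 0.153). Cnn1, a calponin, had -1.30 with TSA (adjusted p = 0.0776) and 0.63 with the hairpin (adjusted p = 0.284). Acta2, Cnn1 and Tagln also belong to the smooth muscle and pericyte markers, whose summed level was 267 to 520 FPKM in the 4 libraries with TSA and 1358 and 1670 FPKM in PE. These same genes carry most of that sum in every library, so it is no separate measure beside them. Of the remaining tested markers, Cspg4, Pdgfrb and Myh11 were lower and Notch3 was higher in PE+TSA than in PE. The fibroblast markers summed to 550 to 763 FPKM in the 4 libraries with TSA and 1067 and 1719 FPKM in PE. Of the 9 tested markers, 8 were lower and Thy1 was higher in PE+TSA than in PE. Among the fibroblast markers Col1a1, Col1a2, Col3a1 and Postn are also on the responsive list, and Col1a1 alone had 634 and 1050 FPKM in PE. Both sums are carried largely by genes of the responsive list, so they do not measure cell makeup apart from it. The part of cell makeup in the values of the matrix and contractile genes was not tested.

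The calls of Furin, Pmepa1, Fkbp1a, Ctgf, Acta2, Mmp2, Nedd4l and both Bgn lines against PE were lost when any 1 library other than PE replicate 1 was left out, with changes of the same sign. The adjusted p of the list genes that lost a call in this way were 0.0512 to 0.242. The calls of Ltbp2 (0.0633 without PE replicate 1) and Sparc (0.062) were lost without that library too. The calls of Acta2 with TSA (adjusted p 0.0549 to 0.276) and of Ctgf with the hairpin (adjusted p 0.0762 to 0.219) were lost without any 1 of the 6 libraries, while these changes kept their direction. Both calls were also lost with no filter (adjusted p = 0.0992 for Acta2 and 0.104 for Ctgf), with 1 prior variance for all features (0.0526 and 0.0753) and with only the groups compared in the fit (0.126 and 0.0733). Against PE, the calls of Mmp2, Nedd4l, both Bgn lines and Sparc were lost with no filter and with 1 prior variance (adjusted p 0.0519 to 0.0844), and that of Ltbp2 with no filter, a filter at 5 FPKM and a pseudocount of 0.1 (adjusted p 0.0581 to 0.0836). With only the groups compared in the fit all 11 list calls against PE were lost (adjusted p 0.0518 to 0.0958). The second Bgn line passed with TSA without PE replicate 1 (-1.87, adjusted p = 0.0458).

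**Figure D4:**
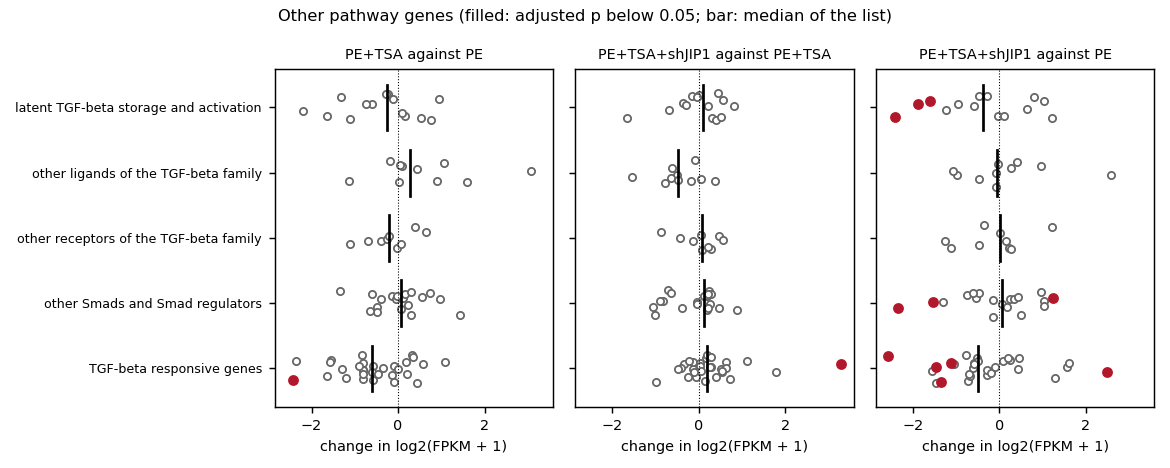
Change in log2(FPKM + 1) of each tested feature of the 5 pathway lists in the 3 comparisons, with filled points for an adjusted p below 0.05 and a bar at each list's median. The filled points are 1 of 30 responsive genes with TSA, 1 of 30 with the hairpin, and 11 features over the lists with both against PE.

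By Pearson's r of log2 levels over the 6 libraries, among 10358 other features, the pattern of Tgfb2 was most like that of the second Dcaf5 listing (r = 0.997), Rhoc (r = 0.987) and the first of 3 Chat listings (r = 0.982). Dcaf5 had 16.4 and 18.0 FPKM in PE+TSA+shJIP1, 3.12 and 4.35 FPKM in PE+TSA, and 9.47 and 8.24 FPKM in PE, the order of groups seen for Tgfb2. Rhoc, a small GTPase, had 63.1 and 61.3, 44.5 and 46.2, and 55.7 and 55.7 FPKM in the same order. For Ltbp1 the most alike were Fdps, an enzyme of isoprenoid synthesis (r = 0.997), the second listing of the bradykinin receptor gene Bdkrb2 (r = 0.995) and Lrrc24 (r = 0.995). Fdps had 140 and 97.6 FPKM in PE+TSA+shJIP1, 185 and 182 FPKM in PE+TSA, and 324 and 296 FPKM in PE. With 6 libraries in 3 groups such values are common for Ltbp1 (178 features above r = 0.95) and less so for Tgfb2 (21 features), and they are a description without a test.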

How the data were processed

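The authors deposited 1 table of expression values for 6 libraries, whose header names no unit. It was read as FPKM, since Cufflinks is named per the submitters' processing notes, which also name the build rn6, without version or role. Aligner, annotation and strand use: not given in the sources used here. Overlapping and antisense genes therefore cannot be told apart. Lines sharing a symbol were kept apart. Features averaging 1 FPKM or more were fitted as log2(FPKM + 1) with limma 3.58.1 in R 4.3.3, with 1 mean per group, all 6 libraries and a prior variance following the level (3 residual and 3.27 prior degrees of freedom). This scale understates changes of low genes. P-values are two-sided, from limma, and Benjamini-Hochberg adjusted within each comparison at 0.05. The limma fit was run on simulated data with 1 spread per feature in all libraries and no shallow library. That simulation therefore does not cover the shallow PE replicate 2. The depth step was run on simulated reads that included a shallow library. Total depth is unknown, so no counting intervals are given. Relative depth came from whole-read steps of low values.

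The members and lists were chosen with earlier results of these data known. The text names all 10 members, Mapk8ip1, every list feature past the threshold, the 3 smallest p-values per list and comparison, and the 3 features most like the member with the smallest p in each comparison. All 10 members matched a RefSeq GRCr8 window. On the lists, Itgav, Ski, Skil, Trim33, Gdf3 and Gdf5 were not analysed here, and Ccn2 is listed as Ctgf. Alternatives were another pseudocount, filter, scaling, prior and design, a replicate block, and each library left out. Summing the Tgfb1 lines was chosen after seeing the data.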

Additional observations from a re-analysis of the deposited data

How the results depend on the processing

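The counts of features past the threshold were 84 with TSA, 30 with the hairpin and 857 with both. They became 3, 0 and 374 with no filter on low values (limma, where 1898 features had an unadjusted p below 0.05 for the hairpin), 5, 8 and 4 with only the groups compared in the fit, and 36 and 2 for TSA and the hairpin with 1 prior variance. Without single libraries they ranged from 6 to 203, from 7 to 16 and from 4 to 941. The count with both was 941 without PE replicate 1, and at most 19 without any other library, while the TSA count was 203 without PE replicate 1 and 14 without PE replicate 2. Whether the replicate numbers pair the libraries is not said in the labels. Correlations of same-numbered deviations over all features were 0.122, 0.040 and 0.074, which cannot settle it. In each group the summed cardiomyocyte markers were higher in replicate 1 and the summed fibroblast markers in replicate 2. With the replicate block the counts were 28, 18 and 1063, and Ltbp1 but not Smad3 passed with both (adjusted p = 0.0535 for Smad3). Smad3 with both also missed the threshold with a pseudocount of 0.1 (adjusted p = 0.0572), no filter (0.11), 1 prior variance (0.0651) and only the groups compared (0.107). Of the members' values under the alternatives, 419 kept direction and side of the threshold, 18 lost and 3 gained a call, and 19 turned. For the named list genes these were 544, 99, 6 and 1.

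None of the members' values that turned had passed. Without single libraries the TSA changes ranged from -0.33 to 0.13 for Smad7, -0.71 to 0.24 for Tgfb3, -0.75 to 0.0089 for Tgfbr1, -0.14 to 0.25 for Tgfbr2 and -0.00031 to 0.000012 for the first Tgfb1 line. The hairpin changes ranged from -0.20 to 0.090 for Tgfbr3, -1.65 to 0.070 for Gdf15 and -0.000010 to 3.71 for the first Tgfb1 line. With both they ranged from -0.046 to 0.17 for Smad2, -0.27 to 0.69 for Tgfb3, -0.031 to 0.72 for Tgfbr1, -0.26 to 0.15 for the second and -0.00016 to 3.71 for the first Tgfb1 line. Median scaling gave -0.059 for Tgfbr2 with TSA and 0.020 for Tgfbr3 with the hairpin, quantile normalization gave 0.011 for Tgfbr3 with the hairpin, and summed lines 0.14 for Tgfb1 with both. The share of Tgfb2 in PE+TSA+shJIP1 was 74.2%, and 76.1% with the second Tgfb1 line only. Median scaling and quantile normalization put the median TSA change of all features at -0.013 and -0.021, against 0.097 as deposited. The cause of these shifts was not tested. The shallow PE replicate 2 limits low values there.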

Other observations

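Tgfb1i1, the gene of a focal adhesion protein (Hic-5) that is named for its induction by TGF-beta, was looked at after its values were seen. It had 11.6 and 9.86 FPKM in PE+TSA+shJIP1, 62.6 and 15.4 FPKM in PE+TSA, and 153 and 142 FPKM in PE. The PE libraries were the highest and the PE+TSA libraries lay far apart. Its log2 level fell by 3.67 ± 0.59 in PE+TSA+shJIP1 against PE (limma adjusted p = 0.0237), and it did not pass for TSA (-2.20, adjusted p = 0.145) or for the hairpin (-1.47, adjusted p = 0.321). This was the direction of Ltbp1 and opposite to that of Smad3 in the same comparison. The call of Tgfb1i1 was not refitted under the alternative settings or with libraries left out.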
